A study of Mus musculus with 10 samples.

Results

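The transport of secreted proteins through the endoplasmic reticulum (ER) and out of it was followed in mouse liver by 41 genes that were chosen by their function: those of the translocation channel, the signal recognition particle, the signal peptidase, the oligosaccharyltransferase, the KDEL receptors and the COPI and COPII vesicle coats, with the TRAP and p24 proteins. Of these 41 genes, 39 had a probe matched by RefSeq accession and were tested among 26122 genes in all, and Dad1 and Sec31a were not analysed here. Of the 26122, 15110 had a symbol, and the rest are accessions without one, each counted as a gene. Shares of all genes below are over this whole set and were not computed for genes with a symbol alone. Each gene is given by 1 probe, the one with the highest mean signal among those with at least 2 values per group. For Copb1 and Tmed2 a brighter probe had too few values.

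The study compared livers of male C57BL/6N mice after gavage with ethanol at 7 g/kg (3 arrays), with ethanol at 5 g/kg (4 arrays) or with maltose in an amount isocaloric to the lower ethanol dose (3 arrays). The labels give neither the age of the mice nor the time between gavage and collection, and there was no untreated group. The maltose control was matched in calories to 5 g/kg and not to 7 g/kg. Liver RNA was labelled with Cy5 and hybridised with a commercial mixed mouse RNA in Cy3 on every array, so each value below is a log2 ratio of liver over this common RNA and each difference is a log2 change between groups.

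A protein bound for secretion is recognised during its synthesis by the signal recognition particle, threaded through the Sec61 channel into the ER, freed of its signal peptide by the signal peptidase and given N-linked sugars by the oligosaccharyltransferase. COPII vesicles then carry it towards the Golgi, and COPI vesicles return escaped ER proteins with the help of KDEL receptors. In hepatocytes this route serves the plasma proteins. Its genes are known from other systems to be raised by the unfolded protein response, the answer of the cell to ER stress, while the acute phase response raises the load of plasma proteins passing through it. The question asked of these genes was whether their differences across the doses ran with those of the ER chaperones or with those of the acute phase genes.

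Of the 39 genes, 38 were well above background in the liver channel on all 10 arrays. The exception was Kdelr3, which was well above background on none of the 3 arrays at 7 g/kg, 1 of 4 at 5 g/kg and 2 of 3 with maltose, so no fold is given for it. The median liver signal per array ran from 121 to 219 over a background of 21 to 24, and 67.3% to 86.2% of spots were well above background. All 8 hepatocyte markers measured were well above background on all arrays. No label says more than that the arrays are separate samples, so p-values measure the spread between these arrays, and their small number limits the precision. In bulk tissue, fewer cells of a type and less RNA per cell cannot be told apart.

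At 7 g/kg, 8 of the 39 genes were higher than with maltose and none was lower, in limma's fit across all genes at an adjusted p under 0.05. They were the channel subunits Sec61a1, Sec61b and Sec61g, the channel partner Tram1, the TRAP subunits Ssr1 and Ssr3, the signal peptidase subunit Spcs2 and the oligosaccharyltransferase subunit Ddost. These 8 were 20.5% of the genes, where 9.01% of all 26122 genes passed, 4.66% higher and 4.35% lower. The difference was above 0 for 31 of the 39 genes, with a median log2 change of 0.138, where 52.6% of all genes were above 0 with a median of 0.012. All measured arrays at 7 g/kg stood above all measured maltose arrays for 15 genes and below them for 4. Such a separation occurred for 13.1% and 12.3% of all genes. Among the 15, Tram1 had only 2 values in each of these groups, and Kdelr2 had only 2 at 7 g/kg. At an unadjusted p under 0.05 there were 15 of the 39 genes, or 38.5%, against 20.1% of all genes. Leaving out replicate 1 or replicate 3 of the 7 g/kg group gave 5 genes past the threshold in each case, since Ssr1 and Ddost then missed it and Tram1 could not be fitted.

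At 5 g/kg, only Spcs2 and the catalytic oligosaccharyltransferase subunit Stt3b were higher than with maltose, and no gene was lower. These 2 of 39 were 5.13%, against 3.79% of all genes, 2.23% higher and 1.57% lower. The median log2 change was 0.106 over the 39 genes and 0.00256 over all genes, and 23 of the 39 were above 0 (50.6% of all genes). The measured arrays of the groups were separated upwards for 5 genes and downwards for 0, where 9.28% and 7.65% of all genes were. Tram1, with 2 values per group, was among the 5. At an unadjusted p under 0.05 there were 9 of the 39 genes, or 23.1%, against 15.5% of all genes. The count was 0 without replicate 1 or replicate 3 of the 5 g/kg group, and without replicate 2 or replicate 3 of the maltose group. It was 1 without maltose replicate 1 and without replicate 1 or replicate 3 of the 7 g/kg group, whose arrays enter the estimate of the spread.

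The comparison of 7 g/kg with 5 g/kg showed 3 genes higher at the higher dose, Sec61g, Sec61b and Tram1, and none lower. This was 7.69% of the 39 genes, while 1.57% of all genes passed, 0.662% higher and 0.903% lower. The difference was above 0 for 30 of 39 genes (51.3% of all genes), with a median of 0.13 against 0.00474 over all genes. Separation of the measured arrays was upwards for 5 genes, among them Tram1 with 2 values per group, and downwards for 1. Of all genes, 4.87% and 6.13% were separated in these directions. Without replicate 1 or replicate 3 of the 7 g/kg group, or replicate 2 or replicate 4 of the 5 g/kg group, the count was 1 gene. The comparisons of both doses with maltose share the same 3 control arrays, so their values are set side by side below without a measure of likeness.

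**Figure D1:**
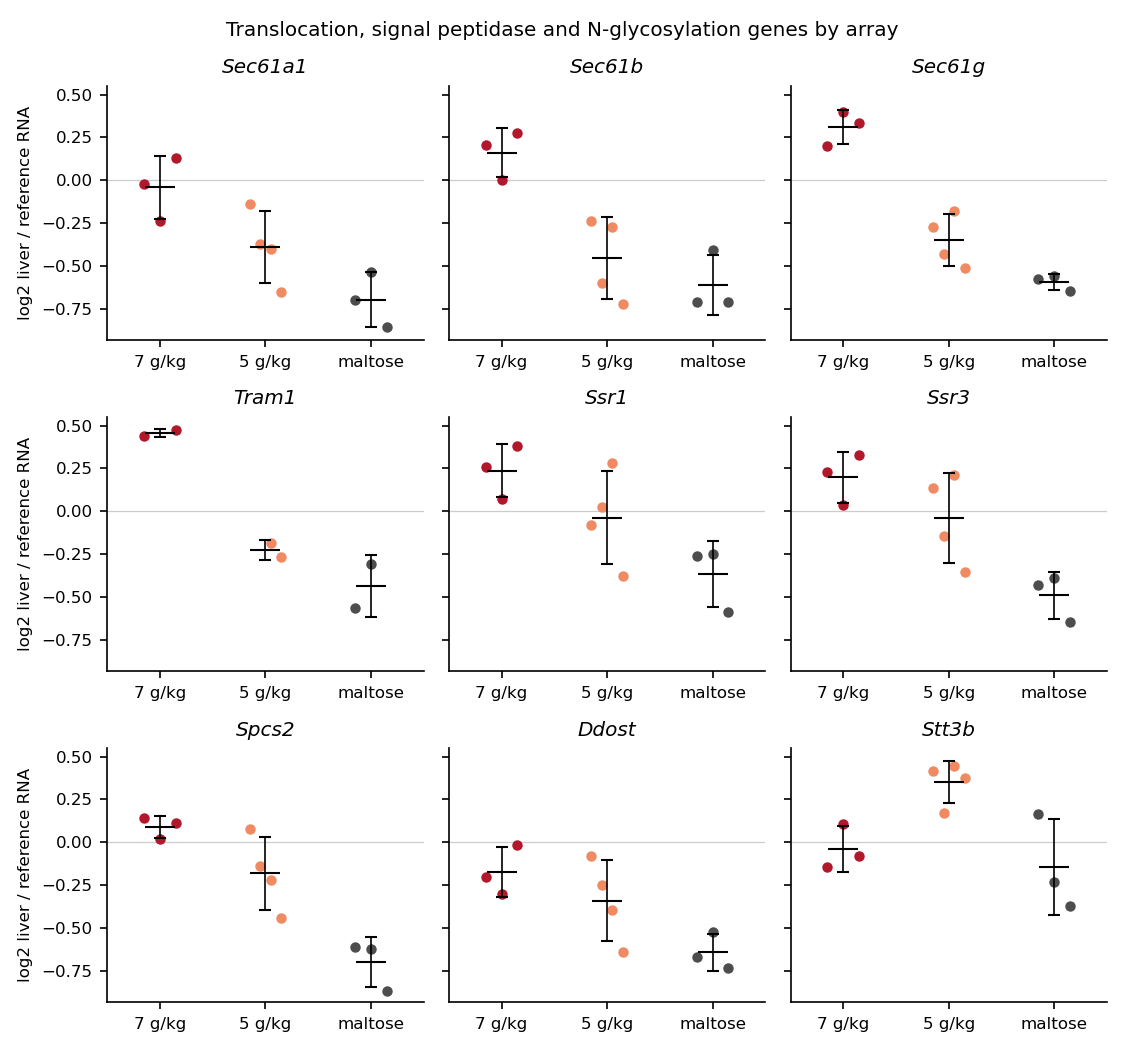
Log2 ratio of liver over the common RNA (y axis) of the 9 genes that passed in any comparison, 1 panel per gene and 1 point per array, with 7 g/kg, 5 g/kg and maltose from left to right and the mean ± SD of each group as black bars. The 7 g/kg arrays lie above the maltose arrays in every panel but that of Stt3b, where the 5 g/kg arrays are the highest group.

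The Sec61 channel held the largest group of changed genes. Of its 6 genes, the 4 already named were higher at 7 g/kg, none passed at 5 g/kg, and the median log2 change of the 6 was 0.71 at 7 g/kg and 0.21 at 5 g/kg. Sec61g encodes the gamma subunit, a small membrane protein that clamps the channel. Its log2 ratio was 0.20, 0.40 and 0.33 on the 7 g/kg arrays, −0.27, −0.43, −0.18 and −0.51 on the 5 g/kg arrays and −0.57, −0.56 and −0.65 on the maltose arrays. No array of any group overlapped with another group, with the highest values at 7 g/kg. The change at 7 g/kg was 0.90 (SE 0.112, 1.87-fold, limma adjusted p = 0.000156), and within the 2 slides that held both groups it was 0.759 and 0.979. Between the doses the difference was 0.66 (SE 0.105, adjusted p = 0.005; not past the threshold with the Cy5 channel alone or the scanner's processed signals, at 0.716 and 0.662), while the change at 5 g/kg was 0.24 (SE 0.105, adjusted p = 0.268).

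Sec61b encodes the beta subunit of the channel. It had log2 ratios of 0.20, 0.00 and 0.28 at 7 g/kg, −0.24, −0.60, −0.27 and −0.72 at 5 g/kg, and −0.71, −0.40 and −0.71 with maltose. All 7 g/kg arrays were above all others, whereas the 5 g/kg and maltose arrays overlapped. The gene was 1.70-fold higher at 7 g/kg than with maltose (log2 0.77, SE 0.145, adjusted p = 0.00353), with 0.609 to 0.985 within slides, and higher than at 5 g/kg by 0.62 (SE 0.135, adjusted p = 0.0345). This difference between the doses missed the threshold without replicate 2 or 4 at 5 g/kg (0.569 and 0.528) and without replicate 1 or 3 at 7 g/kg (0.594 and 0.558). It also missed it with the slide as a block (0.635, adjusted p = 0.0725), the replicate number as a block (0.528), the processed signals and the authors' log2 values (0.575 in each case) and the Cy5 channel alone (0.639).

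Sec61a1 encodes the pore-forming alpha subunit. Its log2 ratios were −0.02, −0.23 and 0.13 at 7 g/kg, −0.14, −0.37, −0.40 and −0.65 at 5 g/kg, and −0.70, −0.54 and −0.85 with maltose. The 7 g/kg arrays were all above the maltose arrays, and the 5 g/kg arrays overlapped with both groups. The change was 0.65 at 7 g/kg (SE 0.141, 1.57-fold, adjusted p = 0.00872) and 0.515 to 0.983 within slides. At 5 g/kg it was 0.31 (SE 0.132, adjusted p = 0.271), and the difference between the doses was 0.35 (SE 0.132, adjusted p = 0.311). The other 2 probes of Sec61a1 gave 0.24 and 0.46 at 7 g/kg.

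Tram1, a membrane protein that assists the insertion of some nascent chains beside the channel, was measured on fewer arrays, because the scanner software had marked its spot as an outlier on the others. It had log2 ratios of 0.44 and 0.48 at 7 g/kg, −0.18 and −0.27 at 5 g/kg, and −0.56 and −0.31 with maltose. The 3 groups did not overlap on these 6 arrays. The change at 7 g/kg was 0.89 (SE 0.144, 1.85-fold, adjusted p = 0.00326) and the difference from 5 g/kg was 0.68 (SE 0.144, adjusted p = 0.0479), with 0.744 and 0.743 on the 1 slide that allows each comparison. With outlier spots kept, the 2 values were 0.853 (adjusted p = 0.00056) and 0.521 (adjusted p = 0.0378). Both missed the threshold with the slide as a block (adjusted p = 0.205 and 0.227). The difference from 5 g/kg also missed it without replicate 1 or replicate 2 at 5 g/kg, replicate 2 at 7 g/kg or maltose replicate 3, at an unchanged 0.684, since no value of Tram1 had come from those arrays. It was 0.628 with processed signals, 0.431 with the authors' values and 0.279 with the Cy5 channel alone, past the threshold in none of these.

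The remaining channel genes, Sec62 and Sec63, which encode membrane partners for post-translational import and for the recruitment of the chaperone BiP, did not pass. Their log2 changes at 7 g/kg were −0.21 and 0.19, and their values at 5 g/kg were −0.12 and 0.22.

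TRAP, a complex beside the Sec61 channel that helps some proteins to enter, was represented by 4 genes. Ssr1 and Ssr3, its alpha and gamma subunits, were higher at 7 g/kg, and Ssr2 (0.13) and Ssr4 (0.11), its beta and delta subunits, did not pass. Ssr3 had log2 ratios of 0.23, 0.04 and 0.33 at 7 g/kg, 0.13, −0.15, 0.21 and −0.36 at 5 g/kg, and −0.43, −0.39 and −0.65 with maltose. Its arrays at both doses lay above all maltose arrays and overlapped with each other. The change was 0.69 at 7 g/kg (SE 0.147, 1.61-fold, adjusted p = 0.00831) with 0.618 to 0.975 within slides, and 0.45 at 5 g/kg (SE 0.138, adjusted p = 0.0942). Without replicate 4 of the 5 g/kg group, the lowest array of that group, the change at 5 g/kg was 0.556 with an adjusted p of 0.028. The second probe of Ssr3 gave 0.79 at 7 g/kg and 0.53 at 5 g/kg.

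Ssr1 had log2 ratios of 0.26, 0.07 and 0.38 at 7 g/kg, −0.08, 0.02, 0.28 and −0.38 at 5 g/kg, and −0.26, −0.25 and −0.58 with maltose. The 7 g/kg arrays did not overlap with the maltose arrays, and the 5 g/kg arrays overlapped with both. Its change was 0.60 at 7 g/kg (SE 0.156, 1.52-fold, adjusted p = 0.025) and 0.33 at 5 g/kg (SE 0.146, adjusted p = 0.295). Within slides the change at 7 g/kg was 0.505 to 0.966, and with the slide as a block it was 0.584 with an adjusted p of 0.0718. The call was also lost without maltose replicate 3 (0.491) and without replicate 1 or 3 at 7 g/kg (0.591 and 0.53), and with the processed signals or the authors' values (0.575 in each case) and the Cy5 channel alone (0.383).

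The signal recognition particle and its receptor, which bring ribosomes with a nascent chain to the ER, showed no gene past the threshold in any comparison. The 6 genes had a median log2 change of 0.12 at 7 g/kg and 0.073 at 5 g/kg. Srp19, a protein of the particle that takes part in its assembly, had the largest value, with log2 ratios of −0.06, 0.12 and 0.09 at 7 g/kg, −0.07, −0.14, −0.10 and −0.23 at 5 g/kg, and −0.24, −0.22 and −0.46 with maltose. The 7 g/kg arrays were above all others. The difference from maltose was 0.36 (SE 0.107) with a limma adjusted p of 0.0519.

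The signal peptidase removes the signal peptide inside the ER. Of its 5 genes, only Spcs2, an accessory subunit, passed, and it did so at both doses. Its log2 ratios were 0.14, 0.02 and 0.11 at 7 g/kg, 0.08, −0.14, −0.22 and −0.44 at 5 g/kg, and −0.61, −0.62 and −0.86 with maltose. The arrays of both doses lay above all maltose arrays, and 1 array at 5 g/kg lay among those at 7 g/kg. The change was 0.79 at 7 g/kg (SE 0.13, 1.73-fold, adjusted p = 0.00146) and 0.763 to 0.975 within slides, and it was 0.52 at 5 g/kg (SE 0.122, 1.43-fold, adjusted p = 0.0283) with 0.424 to 0.687 within slides. The difference between the doses was 0.27 (SE 0.122, adjusted p = 0.441).

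The call for Spcs2 at 5 g/kg was lost without any 1 of the 3 maltose arrays (0.434 to 0.562) and without replicate 1, 2 or 3 at 5 g/kg (0.431, 0.504 and 0.531). It was also lost with median centring (0.526), the processed signals or the authors' values (0.522 in each case) and the Cy5 channel alone (0.407). Among the other signal peptidase genes, the catalytic subunit Sec11c had changes of 0.44 at 7 g/kg (adjusted p = 0.0868) and 0.42 at 5 g/kg (adjusted p = 0.133). The other catalytic subunit, Sec11a, had −0.17 and −0.08, Spcs1 had −0.19 and −0.11, and Spcs3 had 0.14 and −0.07.

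The oligosaccharyltransferase transfers the sugar chain to asparagine residues of proteins entering the ER. Ddost, a subunit of its non-catalytic core, passed at 7 g/kg, and Stt3b, 1 of its alternative catalytic subunits, passed at 5 g/kg. Ddost had log2 ratios of −0.20, −0.30 and −0.02 at 7 g/kg, −0.08, −0.25, −0.40 and −0.64 at 5 g/kg, and −0.67, −0.52 and −0.73 with maltose. The 7 g/kg arrays were above the maltose arrays, and 1 of the 5 g/kg arrays lay within the maltose range. Its change was 0.47 at 7 g/kg (SE 0.138, 1.38-fold, adjusted p = 0.0493), with 0.321 to 0.715 within slides. This value lay at the threshold, and the call was lost without any 1 of the arrays at 7 g/kg (0.389 to 0.532) or with maltose (0.422 to 0.526), and without replicate 2 or 3 at 5 g/kg (0.467 in each case). It was lost as well with median centring (0.514), processed signals or the authors' values (0.476), no filter on dim probes (0.467), outlier spots kept (0.471) and the Cy5 channel alone (0.477).

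Stt3b had log2 ratios of −0.15, 0.11 and −0.08 at 7 g/kg, 0.42, 0.17, 0.45 and 0.38 at 5 g/kg, and 0.17, −0.23 and −0.37 with maltose. The 5 g/kg arrays were above all 7 g/kg arrays, whereas the 7 g/kg arrays lay within the maltose range. Its change was 0.50 at 5 g/kg (SE 0.13, 1.41-fold, adjusted p = 0.0485) and 0.10 at 7 g/kg (SE 0.139, adjusted p = 0.773). The difference of 7 g/kg from 5 g/kg was −0.39 (95% interval −0.67 to −0.11), with an adjusted p of 0.216. A second Stt3b probe gave −0.30 for this difference and 0.51 at 5 g/kg.

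The call for Stt3b at 5 g/kg was lost without replicate 1, 3 or 4 at 5 g/kg (0.475, 0.465 and 0.488), without maltose replicate 2 or 3 (0.453 and 0.383) and without replicate 1 or 3 at 7 g/kg (0.496 in each case). It was lost as well without background correction (0.493), with processed signals or the authors' values (0.472), with no filter on dim probes or outlier spots kept (0.496) and with the Cy5 channel alone (0.381). Within slides the change at 5 g/kg was 0.248 to 0.745. The alternative catalytic subunit Stt3a had changes of 0.04 at 7 g/kg and −0.01 at 5 g/kg. The core subunits Rpn1 (0.37 at 7 g/kg, adjusted p = 0.238) and Rpn2 (0.17) did not pass.

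**Figure D2:**
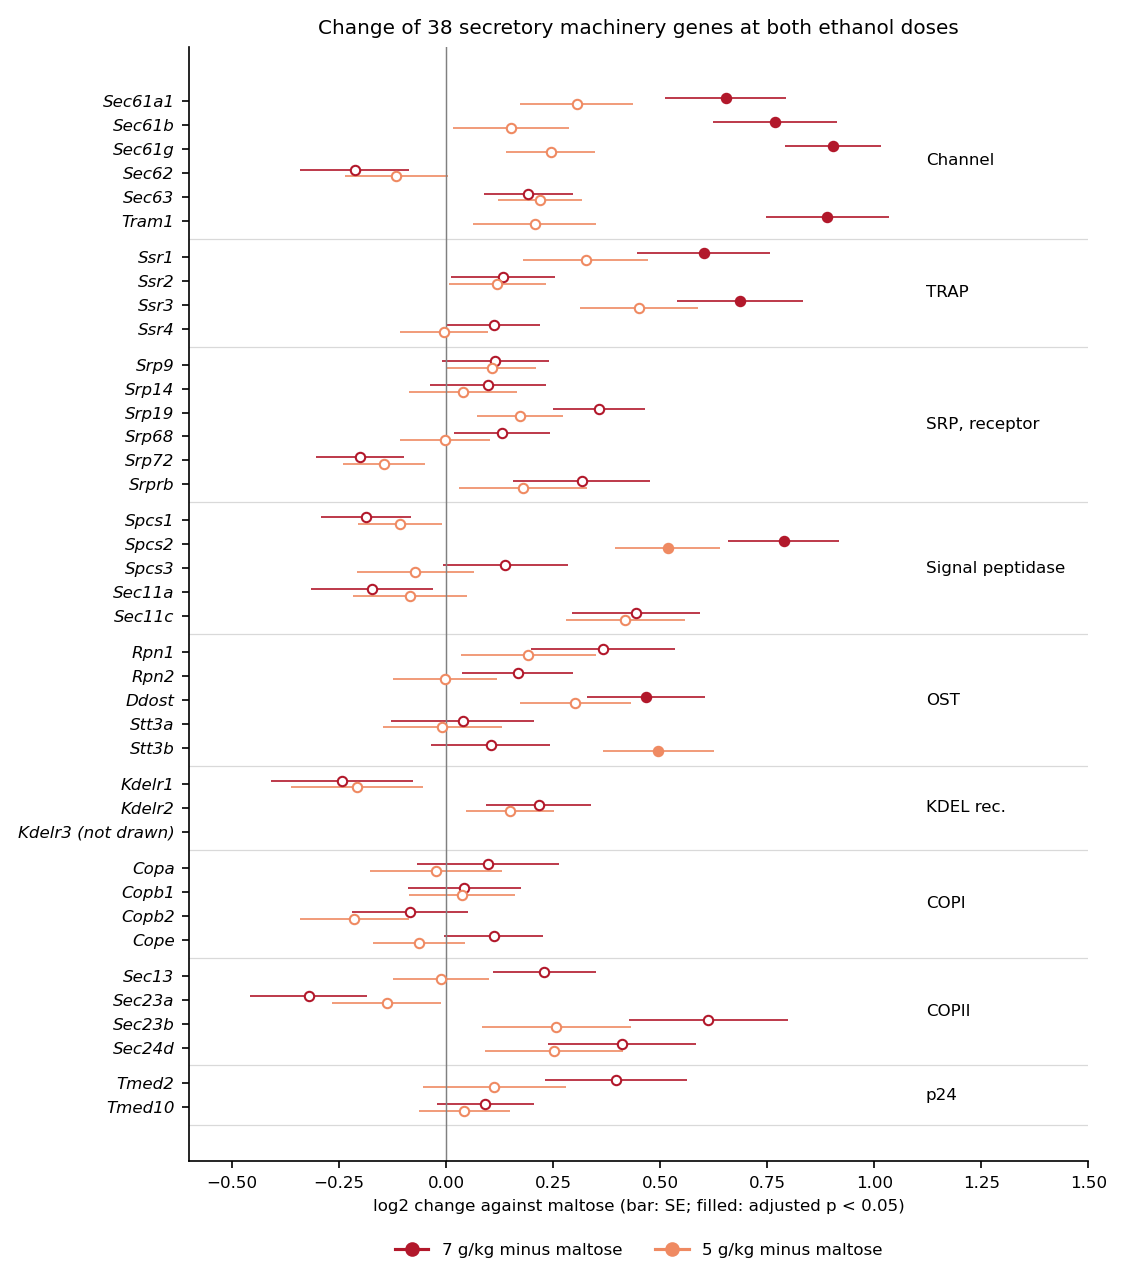
Log2 change against maltose (x axis) of 38 of the 39 genes, ordered by role, at 7 g/kg and 5 g/kg, with the SE from limma as a horizontal bar. Filled points passed an adjusted p of 0.05 and open points did not, and 8 genes are filled at 7 g/kg and 2 at 5 g/kg. Kdelr3 has no point, because it was not well above background on most arrays.

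Among the genes chosen for the retrieval and vesicle stages, none passed the test in any of the 3 comparisons. Other genes of these stages that did pass, such as Copz2 and Tmed1, are given below with the further genes of the pathway. The KDEL receptors, which return chaperones to the ER, were represented by Kdelr1 and Kdelr2 beside Kdelr3. Kdelr3 was not well above background on most arrays and counts among the genes below 0. Kdelr2 had changes of 0.22 at 7 g/kg and 0.15 at 5 g/kg. Kdelr1 had log2 ratios of −0.04, 0.22 and 0.29 at 7 g/kg, 0.11, 0.15, 0.43 and 0.07 at 5 g/kg, and 0.77, 0.37 and 0.05 with maltose. The groups overlapped, and the difference of 7 g/kg from maltose was −0.24 (95% interval −0.60 to 0.11, adjusted p = 0.484).

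The COPI coat, which carries vesicles from the Golgi back to the ER, had medians of 0.07 at 7 g/kg and −0.04 at 5 g/kg over 4 genes. Cope, the epsilon subunit, had the largest value of these 4. Its log2 ratios were −0.11 to 0.02 at 7 g/kg, −0.42 to −0.08 at 5 g/kg and −0.26 to 0.00 with maltose. These ranges overlapped, and the difference of 7 g/kg from maltose was 0.11 (95% interval −0.14 to 0.36). The upper bound lies below the change of Sec61g at 7 g/kg.

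The COPII coat, which forms the vesicles leaving the ER, had medians of 0.32 at 7 g/kg and 0.12 at 5 g/kg over 4 genes. Sec23b, a subunit of its inner layer, had log2 ratios of −0.10, −0.25 and 0.06 at 7 g/kg, −0.07, −0.36, −0.43 and −0.94 at 5 g/kg, and −0.81, −0.43 and −0.89 with maltose. All 7 g/kg arrays were above the maltose arrays. The difference was 0.61 (SE 0.186) with an adjusted p of 0.0555, and a second probe gave 0.63. Without maltose replicate 2 the value was 0.752 and passed the threshold. Its close relative Sec23a differed by −0.32 at 7 g/kg (adjusted p = 0.191), with all 7 g/kg arrays below all maltose arrays. Sec24d, which binds cargo in the inner layer, differed by 0.41 (adjusted p = 0.186), and Sec13 of the outer layer by 0.23.

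The p24 proteins are cargo receptors that travel in these vesicles. Tmed2 had log2 ratios of 0.10, 0.04 and 0.67 at 7 g/kg, 0.12, 0.13 and −0.29 on the 3 arrays measured at 5 g/kg, and −0.12, −0.03 and −0.24 with maltose. The arrays at 7 g/kg were above those with maltose, and 1 of them was far above the rest. The difference was 0.40 (SE 0.166, adjusted p = 0.189). Tmed10 differed by 0.09 on the probe used, and by −0.40 on a second probe.

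The 25 genes not described array by array ran from −0.32 (Sec23a) to 0.44 (Sec11c) at 7 g/kg, with a smallest adjusted p of 0.0868, and from −0.21 (Copb2) to 0.42 (Sec11c) at 5 g/kg, with a smallest adjusted p of 0.133. Their differences of 7 g/kg from 5 g/kg ran from −0.18 (Sec23a) to 0.24 (Sec13). Further probes with enough values for the fit existed for 21 of the 39 genes, and 23 of these 26 probes had the same sign of change at 7 g/kg as the probe used.

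The dose pattern of the genes was set beside that of 17 ER chaperone and ER-associated degradation genes and of 17 acute phase genes. The ER list lacks Hspa5, which encodes BiP, Pdia4 and Herpud1, which had no probe past the filters. It also lacks Pdia3 and Dnajb11, which had no matched probe. Saa4, Crp and Cp are missing from the acute phase list, as they had no probe past the filters. ER chaperone genes were higher in 7 of 17 cases at 7 g/kg (median log2 change 0.57) and in 11 of 17 at 5 g/kg (median 0.85). The difference of 7 g/kg from 5 g/kg had a median of −0.30, with 4 of 17 genes above 0 and 1 gene past the threshold, Creld2, which was lower at 7 g/kg. Acute phase genes were higher in 16 of 17 cases at 7 g/kg (median 2.41) and in 10 of 17 at 5 g/kg (median 1.31). Their difference of 7 g/kg from 5 g/kg had a median of 1.16, with 15 of 17 above 0 and 9 past the threshold, all higher.

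Among the 39 secretory machinery genes, 30 had a positive difference of 7 g/kg from 5 g/kg, and over the 6 channel genes the median difference was 0.48. The channel, taken because it held the largest group of changed genes, and the acute phase list had positive medians for this difference. The ER chaperones had a negative one, and no test was made between the lists. Over all 39 genes the median was 0.13. The roles other than the channel and the KDEL receptors ran from 0.0254 (signal peptidase) to 0.2 (COPII). No median is given for the KDEL receptors, as it would be that of Kdelr3, and Kdelr1 and Kdelr2 had −0.035 and 0.066. Against the maltose mean, the medians of the 39 genes were 0.224, 0.103 and 0.307 on the 7 g/kg arrays. They were 0.22, 0.106, 0.132 and −0.116 on the 5 g/kg arrays, so the doses overlapped. By array, the median change of the channel genes against the maltose mean was 0.734, 0.46 and 0.855 at 7 g/kg, 0.323, 0.161, 0.272 and 0.062 at 5 g/kg, and −0.034, 0.144 and −0.101 with maltose. The 7 g/kg arrays were the highest of all for the channel, which in part restates the choice of this role by its called genes. For the ER chaperones the medians were 0.584, 0.448 and 0.66 at 7 g/kg, 1.052, 0.995, 0.825 and 0.363 at 5 g/kg, and 0.032, 0.126 and −0.109 with maltose, so that 3 of the 4 arrays at 5 g/kg were the highest. For the acute phase genes they were 2.309, 2.379 and 2.553 at 7 g/kg, 1.388, 1.2, 2.213 and 0.318 at 5 g/kg, and 0.112, −0.098 and −0.005 with maltose.

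Replicate 4 at 5 g/kg had the lowest median of its group for the channel, the ER chaperones, the acute phase genes and the 39 genes together. Without it, 15 ER chaperone genes and 14 acute phase genes were higher at 5 g/kg. The count of acute phase genes at 5 g/kg was 5 without maltose replicate 3, and 6 without maltose replicate 1 or without replicate 1 or replicate 3 at 5 g/kg. The count of ER chaperone genes at 7 g/kg was 3 without maltose replicate 3, and 4 without replicate 1 or replicate 3 at 7 g/kg. For the difference of 7 g/kg from 5 g/kg, the count of acute phase genes was 1 without replicate 2 or 3 at 7 g/kg or replicate 2 at 5 g/kg, 5 without maltose replicate 3 or replicate 1 at 5 g/kg, and 6 without maltose replicate 1. Within the 3 slides that held both doses, the median difference of 7 g/kg from 5 g/kg was −0.6 to 0.264 for the ER chaperones, 0.408 to 2.22 for the acute phase genes and −0.084 to 0.377 for the 39 genes. The processing moved these counts too. For the acute phase genes, none of the 9 differences between the doses passed with the Cy5 channel alone (median 0.664), the processed signals or the authors' values. At 5 g/kg these settings gave 1, 5 and 4 acute phase genes, and 3, 7 and 6 ER chaperone genes. At 7 g/kg they gave 0, 4 and 2 ER chaperone genes, and the acute phase median was 1.45 with the Cy5 channel alone.

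**Figure D3:**
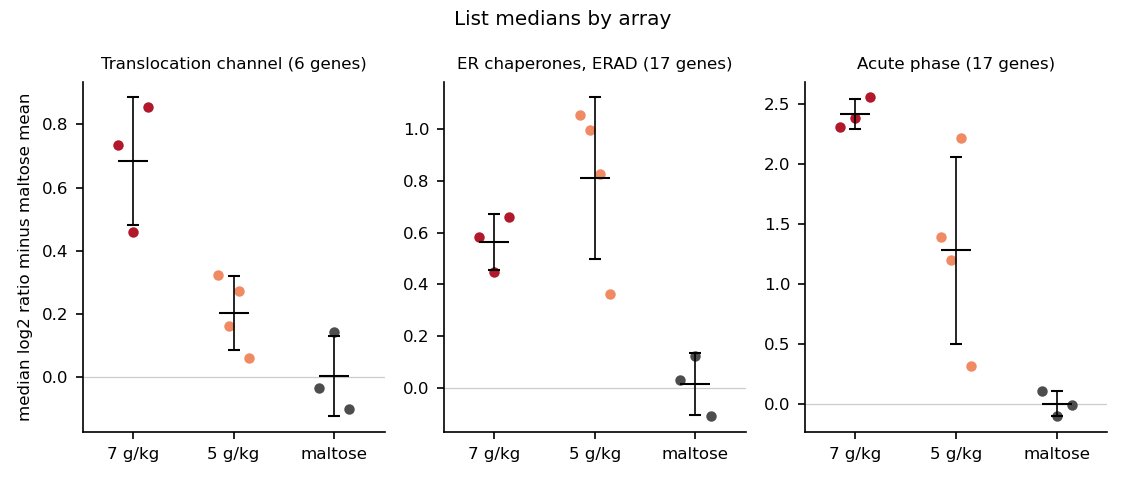
Median log2 ratio of the 6 channel genes, 17 ER chaperone and ER-associated degradation genes and 17 acute phase genes, after the mean of the maltose arrays was subtracted from each gene, with 1 panel per list on its own y axis, 1 point per array, 7 g/kg, 5 g/kg and maltose from left to right, and the mean ± SD of each group as black bars. The channel medians are highest at 7 g/kg (0.46 to 0.855), and the ER chaperone medians are highest on 3 of the 4 arrays at 5 g/kg (0.825 to 1.052). The channel was picked because it held the largest group of changed genes, so its height at 7 g/kg in part restates that choice. Over all 39 secretory machinery genes, not drawn here, the array medians of the doses overlapped.

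Creld2, an ER chaperone gene induced by the unfolded protein response, had log2 ratios of −0.68, −1.51 and −0.67 at 7 g/kg, 0.87, 0.15 and 0.15 on the 3 arrays measured at 5 g/kg, and −2.09, −2.02 and −2.32 with maltose. It differed from maltose by 1.19 at 7 g/kg (SE 0.229, adjusted p = 0.0048) and by 2.53 at 5 g/kg (SE 0.229, adjusted p = 5.21e-05), and 7 g/kg differed from 5 g/kg by −1.34 (SE 0.229, adjusted p = 0.00948). The difference between the doses missed the threshold with outlier spots kept (−0.913, adjusted p = 0.341), the authors' values (−0.912), the processed signals (−1.36) and the Cy5 channel alone (−1.22). The change at 7 g/kg missed it with outlier spots kept (1.2, adjusted p = 0.0721), the authors' values (1.2) and the Cy5 channel alone (1.22). Hsp90b1, the ER member of the HSP90 chaperones, and Sdf2l1, a co-chaperone in the ER, had changes of 0.53 and 0.85 at 7 g/kg (adjusted p = 0.185 and 0.0536) and of 1.38 and 1.55 at 5 g/kg (adjusted p = 0.00173 and 0.00219). Dnajb9, an ER co-chaperone of BiP, did not pass, with 0.44 at 7 g/kg and 0.40 at 5 g/kg.

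Of the acute phase genes, Saa1, a serum amyloid protein, differed by 6.24 at 7 g/kg (adjusted p = 0.000297) and by 2.35 at 5 g/kg (adjusted p = 0.135). Orm1, an acid glycoprotein of plasma, differed by 2.87 at 7 g/kg (adjusted p = 3.79e-05) and 1.31 at 5 g/kg (adjusted p = 0.0171). Lcn2, a protein that binds bacterial iron carriers, differed by 5.27 at 7 g/kg (adjusted p = 1.63e-05) and 3.21 at 5 g/kg (adjusted p = 0.0014). For these 3 genes 7 g/kg was higher than 5 g/kg, by 3.89, 1.56 and 2.07 (adjusted p = 0.0215, 0.0104 and 0.0394). Haptoglobin (Hp), which binds free haemoglobin, was raised at both doses, by 2.02 at 7 g/kg (adjusted p = 0.00013) and 1.88 at 5 g/kg (adjusted p = 0.00037), and the doses differed by 0.14 (adjusted p = 0.902). With the Cy5 channel alone, Hp differed by 0.38 at 7 g/kg (adjusted p = 0.303) and 0.318 at 5 g/kg (adjusted p = 0.6), and neither passed. Single arrays decided some of these calls: without replicate 4 at 5 g/kg, Saa1 (3.08) and Dnajb9 (0.607) passed at 5 g/kg and Hsp90b1 (−1.05) and Sdf2l1 (−0.956) were lower at 7 g/kg than at 5 g/kg. Without replicate 1 or 4 at 5 g/kg, Sdf2l1 passed at 7 g/kg (0.851 in each case). The call for Orm1 at 5 g/kg was lost without maltose replicate 2 or 3 (1.27 and 1.24). It was also lost with the processed signals or the authors' values (1.26 in each case) and with the Cy5 channel alone (1.1). The Cy5 channel alone also lost the call for Hsp90b1 at 5 g/kg (1.11). The difference of 7 g/kg from 5 g/kg was no longer called for Saa1 without replicate 2 or 3 at 7 g/kg or replicate 2 at 5 g/kg (3.81, 3.63 and 3.6), nor for Lcn2 without any 1 array at 7 g/kg or with maltose or without replicate 2 at 5 g/kg (1.7 to 2.32). That difference was called for none of Saa1, Orm1 and Lcn2 with the Cy5 channel alone (1.82, 1.14 and 2.07), the processed signals (3.83, 1.47 and 2.06) or the authors' values (3.83, 1.47 and 2.06).

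**Figure D4:**
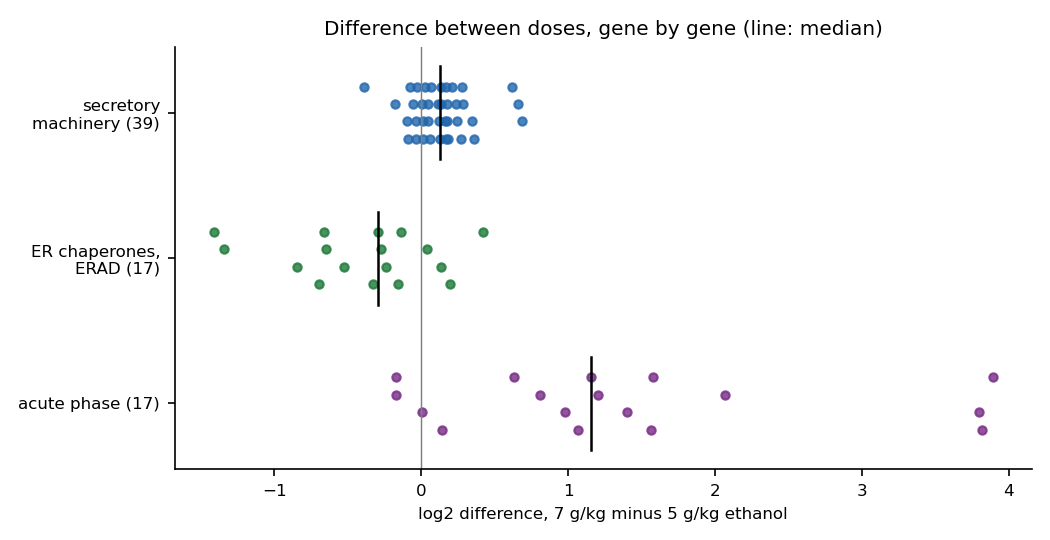
Difference of 7 g/kg from 5 g/kg in log2 units (x axis) for each of the 39 secretory machinery genes, 17 ER chaperone and ER-associated degradation genes and 17 acute phase genes, with 1 point per gene and the median of each list as a vertical line. The median is 0.13 for the secretory machinery, −0.30 for the ER chaperones and 1.16 for the acute phase genes. Kdelr3, which was not well above background on most arrays, is among the points.

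The start regions of the genes were read for sequence motifs known from the unfolded protein response and from STAT factors, which carry acute phase signals. RefSeq windows from 250 bases before to 50 bases after the gene start (GRCm38.p6) existed for 32 of the 41 genes, as 35 windows, among 32851 windows of all genes, and both strands were searched. Of the genes that passed in any comparison, Sec61a1 and Tram1 had no window, so the search does not cover them. The ER stress element, CCAAT followed by any 9 bases and CCACG, was in 0.119% of all windows and in none of the 35, and its variant, ATTGG followed by any 1 base and CCACG, was in 0.0365% of all windows and in none of the 35. The core TGACGTGG of the unfolded protein response element was in 0.676% of all windows and in 5 of the 35, those of Copb1, Copb2, Kdelr3, Sec23a and Sec24d, none of which passed in any comparison. The palindromic STAT motif TTCCNGGAA was in 1.15% of all windows and in 2 of the 35, those of Sec61g and Copb2. A match is a description of the letters, not of a bound site.

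Sec61g is shown because it had the smallest adjusted p of the 39 genes, with the STAT motif in capitals, 73 bases before its start (chr11:16508435-16508734, minus strand).
Sec61g: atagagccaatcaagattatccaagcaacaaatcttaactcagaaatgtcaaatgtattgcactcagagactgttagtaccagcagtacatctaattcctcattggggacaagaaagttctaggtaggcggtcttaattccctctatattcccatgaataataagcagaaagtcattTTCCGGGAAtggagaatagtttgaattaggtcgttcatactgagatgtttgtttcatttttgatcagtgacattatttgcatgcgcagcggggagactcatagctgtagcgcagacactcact

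Copb2 and Sec24d are shown as genes that hold the TGACGTGG core and did not pass in any comparison. Copb2, the beta prime subunit of COPI, has the core 7 bases and the STAT motif 19 bases before its start (chr9:98563481-98563780, plus strand), and Sec24d has the core 26 bases before its start (chr3:123267246-123267545, plus strand). Capitals mark these motifs.
Copb2: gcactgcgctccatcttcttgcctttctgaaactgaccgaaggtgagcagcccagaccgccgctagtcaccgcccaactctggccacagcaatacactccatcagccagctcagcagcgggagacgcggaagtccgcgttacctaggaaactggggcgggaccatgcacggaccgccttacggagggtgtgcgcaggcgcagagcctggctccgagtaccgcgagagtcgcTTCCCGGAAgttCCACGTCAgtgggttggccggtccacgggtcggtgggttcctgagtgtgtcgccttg
Sec24d: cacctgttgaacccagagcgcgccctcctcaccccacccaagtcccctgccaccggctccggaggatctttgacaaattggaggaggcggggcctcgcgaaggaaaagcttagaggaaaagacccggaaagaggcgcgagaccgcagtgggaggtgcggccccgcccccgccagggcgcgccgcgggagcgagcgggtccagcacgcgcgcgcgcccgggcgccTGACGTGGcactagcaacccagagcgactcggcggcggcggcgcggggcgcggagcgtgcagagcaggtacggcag

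Hsp90b1 and Creld2 are shown for comparison as ER chaperone genes with the element in their window. The windows of Sdf2l1, which likewise had its larger change at 5 g/kg, and of Dnajb9 held none of the 4 motifs. Capitals mark the ER stress element, which begins 212 and 107 bases before the start of Hsp90b1 (chr10:86705395-86705694, minus strand) and 126 bases before that of Creld2 (chr15:88819396-88819695, plus strand).
Hsp90b1: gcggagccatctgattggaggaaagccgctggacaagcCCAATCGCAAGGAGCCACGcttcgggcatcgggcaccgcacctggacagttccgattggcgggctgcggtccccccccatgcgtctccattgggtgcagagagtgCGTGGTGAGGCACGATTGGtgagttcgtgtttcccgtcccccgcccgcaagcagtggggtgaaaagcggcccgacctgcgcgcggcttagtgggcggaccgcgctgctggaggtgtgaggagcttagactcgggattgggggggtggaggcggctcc
Creld2: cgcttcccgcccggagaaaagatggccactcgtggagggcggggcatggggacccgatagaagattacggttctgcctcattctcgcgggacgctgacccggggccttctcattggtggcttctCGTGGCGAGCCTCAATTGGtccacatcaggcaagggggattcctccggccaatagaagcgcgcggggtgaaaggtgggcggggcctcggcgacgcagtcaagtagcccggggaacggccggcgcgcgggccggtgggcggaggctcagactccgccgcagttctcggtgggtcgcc

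Of 87 further genes of the secretory pathway, such as SNAREs, cargo receptors and enzymes of N-glycosylation, 6 were higher and 8 lower at 7 g/kg, 2 were higher and 2 lower at 5 g/kg, and 0 were higher and 2 lower at 7 g/kg against 5 g/kg. These shares were 6.9% higher and 9.2% lower at 7 g/kg (4.66% and 4.35% of all genes), 2.3% in each direction at 5 g/kg (2.23% and 1.57%), and 2.3% lower between the doses (0.903%). Their median changes were 0.044 at 7 g/kg and 0.036 at 5 g/kg. Ergic1, a membrane protein of the compartment between ER and Golgi, had log2 ratios of 0.17, −0.09 and −0.05 at 7 g/kg, −0.21, −0.17, −0.45 and −0.24 at 5 g/kg, and −0.84, −0.78 and −1.11 with maltose. It was higher by 0.92 at 7 g/kg (SE 0.124, adjusted p = 0.000273) and by 0.64 at 5 g/kg (adjusted p = 0.00604). The SNARE Sec22b was higher by 0.79 at 7 g/kg (adjusted p = 0.00204) and by 0.55 at 5 g/kg (adjusted p = 0.0256).

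Creb3l2, a transcription factor of the ER membrane that is cut to activate secretory pathway genes, was higher at 7 g/kg by 0.98 (SE 0.231, adjusted p = 0.0152) and had 0.24 at 5 g/kg. The SNARE Bet1 was higher at 7 g/kg by 0.50 (adjusted p = 0.0233). Among the genes that were lower at 7 g/kg were Sec16b, a protein of the sites where COPII vesicles form (−0.80, adjusted p = 0.00072), the p24 protein Tmed1 (−0.85, adjusted p = 0.000726), the COPI subunit Copz2 (−0.63, adjusted p = 0.00159) and Dolpp1, a phosphatase of the dolichol cycle (−0.54, adjusted p = 0.0138). Tmed1 and Dolpp1 were also lower at 5 g/kg, by −0.97 and −0.46 (adjusted p = 0.000379 and 0.0405). The 2 genes lower at 7 g/kg than at 5 g/kg were Lman2l, a lectin-type cargo receptor (−0.67, adjusted p = 0.00528), and Copz2 (−0.47, adjusted p = 0.0275).

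Markers of other secretory or infiltrating cells were read beside these changes. None of 7 plasma cell markers passed in any comparison, with a median of 0.17 at 7 g/kg, and their summed signal was 6165 to 9707 at 7 g/kg, 6457 to 8299 at 5 g/kg and 2830 to 6980 with maltose. Of 8 hepatocyte markers, Ttr, Trf and Tat were higher at 7 g/kg and none at 5 g/kg. The median of these 8 at 7 g/kg was 0.169, with 3 of them below 0. Of 7 neutrophil markers, S100a8 and S100a9 were higher at 7 g/kg (1.28 and 1.41), and S100a8 was higher at 7 g/kg than at 5 g/kg (0.89). The median of the 7 at 7 g/kg was 0.171, with 2 of them below 0. The summed signal of the neutrophil markers was 5376 to 8373 at 7 g/kg, 3206 to 7857 at 5 g/kg and 3639 to 4674 with maltose. Endothelial markers were higher in 3 of 9 cases at each dose, with sums of 4802 to 6223 at 7 g/kg, 2902 to 5291 at 5 g/kg and 1876 to 3273 with maltose. Of 9 lymphocyte markers, Cd3e (0.44) and Nkg7 (0.61) were higher at 7 g/kg and Nkg7 (0.62) at 5 g/kg, with sums of 5117 to 6590 at 7 g/kg, 3160 to 7117 at 5 g/kg and 2608 to 3885 with maltose. Of 8 stellate cell and fibroblast markers, Dcn was higher at 5 g/kg (0.74), with sums of 14435 to 27238 at 7 g/kg, 10352 to 21671 at 5 g/kg and 8662 to 12756 with maltose. Of 6 cholangiocyte markers, Spp1 was lower at 5 g/kg (−0.48), with sums of 8582 to 12708 at 7 g/kg, 6881 to 12568 at 5 g/kg and 6631 to 9354 with maltose. The medians of the endothelial, lymphocyte, stellate cell and cholangiocyte lists were 0.191, 0.0765, 0.24 and 0.0917 at 7 g/kg. Below 0 there were 2 of 9, 3 of 9, 1 of 8 and 2 of 6 of their markers. At 5 g/kg the medians of these lists were 0.187, 0.112, 0.214 and 0.12. None of 7 Kupffer cell and 9 exocrine pancreas markers passed in any comparison. The sums are raw signals and were not scaled for the brightness of the arrays, whose median liver signal was 191 to 219 at 7 g/kg, 134.5 to 215 at 5 g/kg and 121 to 165 with maltose. The part of this brightness in the sums was not tested. No list had a marker below background on all arrays, and the part of these cells in the changes of the secretory machinery was not tested.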

How the data were processed

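Liver RNA of 10 samples was measured on 2-colour Agilent arrays of 45018 spots. RNA came from fresh liver by Trizol with a column clean-up and was labelled through cDNA by an indirect dye coupling, per the labels' protocols. The deposited files give, for each spot and channel, a median intensity with its local background, written without normalization by Agilent Feature Extraction 11.5.1.1 per the file headers. They also give a processed intensity (background subtracted and dye normalized, per the file headers) and the log10 ratio of red over green computed from it by that software, as deposited. The deposited series table holds a log2 ratio of liver over common RNA, a scale read from its slope on the log10 ratio. Any step between the scanner ratio and that table is not given in the sources used here, and the labels also name liver as the tissue of the common RNA channel.

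From the median intensities, limma 3.58.1 in R 4.3.3 gave the values used: normexp with an offset of 50, loess within arrays, control and outlier-marked spots (2.42% to 5.83% per array) left out, and spots of a probe averaged. Of 41174 probes, 24375 (59.2%) were matched to a symbol by accession. A probe had to be well above background in liver on 3 arrays and to have 2 values per group. The probe with the highest mean signal among these stood for a gene. One limma fit of 3 group means over all 10 arrays, with two-sided tests and Benjamini-Hochberg adjustment over 26122 genes, gave every adjusted p (threshold 0.05). Slides held arrays of more than 1 group, so within-slide values and a slide block were computed.

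Members given array by array were those past the threshold in any comparison and the member with the largest absolute change at 7 g/kg in each role. Of the further pathway genes, at most 4 per direction and comparison were named, those with the smallest p. The genes, lists and comparison genes were chosen with earlier results of these data known. The replicate numbers did not pair the arrays: deviations from group means correlated at −0.203 to 0.197 over 9 pairs of arrays with the same number. Pairs of arrays from different groups on the same slide correlated at 0.236, 0.225, 0.2, 0.197, 0.155, 0.0583, −0.0346 and −0.178. On different slides such pairs ran from −0.324 to 0.194. Most same-slide values thus lay above 0, and the main fit holds no slide term. Alternatives covered background correction, scaling, filters, probe choice, outlier spots, blocks and leaving out each array.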

Additional observations from a re-analysis of the deposited data

Results flagged for a closer look

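No array of the 5 g/kg group stood apart from the others by Dixon's criterion in 23 sets of 4 values searched, and the groups of 3 arrays were not searched.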

How the results depend on the processing

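No result changed its direction past the threshold under any alternative tried. At 7 g/kg, Sec61g and Spcs2 passed under all alternatives, and Sec61a1, Sec61b and Ssr3 under all but the Cy5 channel alone, which uses no common RNA. Of 948 recomputed values of single genes, 867 stayed on their side of the threshold, 70 fell short of it and 11 newly passed it. Most of the 948 belonged to results that were not called in the main fit. Only called results could fall short, so the 70 are a larger share of these than of the 948. The number of secretory machinery genes past the threshold, 8 at 7 g/kg, 2 at 5 g/kg and 3 for 7 g/kg against 5 g/kg, was 2, 0 and 0 with the Cy5 channel alone. It was 0 at 5 g/kg with the scanner's processed signals and with the authors' log2 values, and between the doses it was 0 with processed signals and 1 with the authors' values. At 5 g/kg it was 1 without background correction, with median centring, without the filter on dim probes and with outlier spots kept. With the slide as a block, Tram1 and Ssr1 missed the threshold at 7 g/kg. Over all genes, that block gave 967 higher and 789 lower at 7 g/kg, against 1217 and 1137 in the main fit. The number of secretory machinery genes between the doses was 1 with the slide as a block. With the replicate number as a block, which the pairing check did not bear out, it was 1 between the doses, and 268 of all genes passed there against 409. The number of all genes past the threshold was 593 at 7 g/kg, 120 at 5 g/kg and 47 between the doses with the Cy5 channel alone. At 5 g/kg and between the doses it was 517 and 116 with processed signals, and 581 and 137 with the authors' values. The cause of these differences was not tested. Median centring moved the share of higher calls among all genes to 67.0% at 7 g/kg (51.7% with loess), 75.3% at 5 g/kg (58.7%) and 52.4% between the doses (42.3%), and the Cy5 channel alone gave 68.1% between the doses. Leaving out each array gave 5 to 9 secretory machinery genes at 7 g/kg, 0 to 2 at 5 g/kg and 1 to 2 between the doses. Over all genes it gave 1500 to 2351 at 7 g/kg, lowest without maltose replicate 1. It gave 466 to 1055 at 5 g/kg, with 466, 635 and 503 without maltose replicates 1, 2 and 3. Between the doses it gave 221 to 430, with 221 and 232 without replicates 1 and 2 at 7 g/kg and 267 and 230 without replicates 1 and 2 at 5 g/kg. The median change of the secretory machinery genes stayed above 0 throughout, at 0.0971 to 0.227 at 7 g/kg, 0.0498 to 0.162 at 5 g/kg and 0.0487 to 0.193 between the doses without single arrays. Aquantile scaling between arrays left the total numbers of calls as they were. It alters the mean signals and not the log2 ratios, so it could act only through the choice of probe. Its unchanged totals are therefore no check on scaling, and its values of single genes are among the 867. Signal over background limits Kdelr3.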
